A study of Mus musculus with 16 samples.

Results

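The genes described here let calcium into the cytoplasm of splenic B cells: 2 voltage-gated channel subunits (Cacna1a, Cacna1e), the ryanodine receptor Ryr2, the inositol trisphosphate (IP3) receptors Itpr1, Itpr2 and Itpr3, the store sensors Stim1 and Stim2, and the store-operated channel subunits Orai1 and Orai2. They were taken from the deposited expression table by symbol, 10 of its 27928 genes, and all 10 had a mean normalized count of at least 10 and were tested. Expression was measured by RNA-seq of total RNA in B cells of 2 kinds, follicular (FO) and marginal zone (MZ), sorted from spleen as CD21 low CD23 high and CD21 high CD23 low cells. The mice were 8 to 12 weeks old and labelled C57BL/6. By the methods of the study, WT were BL6 mice, and cKO were Gtf2i fl/fl mice carrying a Cre that is active in the B lineage. Gtf2i encodes the transcription factor TFII-I. There were 2 libraries in each of 4 groups (WT FO, cKO FO, WT MZ, cKO MZ), and no source used here says whether a library came from 1 animal or from a pool. The p-values therefore measure the spread between these libraries, which may be in part technical.

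As background, engagement of the B cell receptor activates phospholipase C gamma 2, whose product IP3 opens the IP3 receptors of the endoplasmic reticulum. The fall in stored calcium is sensed by STIM1 and STIM2, which gather beneath the plasma membrane and open ORAI channels, and the calcium that enters drives calcineurin and NFAT. FO B cells recirculate and mainly serve T cell-dependent responses, whereas MZ B cells stay at the marginal sinus and respond quickly to blood-borne antigen.

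Reads on genes ranged from 21546552 to 25083552 per library. The sorted subsets carried their markers: Cr2, which encodes CD21, was between 22942 and 26803 normalized counts in FO and between 86953 and 97087 in MZ libraries, and Fcer2a, which encodes CD23, was between 24802 and 41973 in FO and between 3069 and 6708 in MZ libraries. Gtf2i was at 2040 and 1992 (WT FO), 1523 and 1531 (cKO FO), 2864 and 2471 (WT MZ) and 1782 and 1889 (cKO MZ) normalized counts. By the fit described below it was 1.32-fold lower in cKO in FO, 1.45-fold lower in MZ and 1.38-fold lower over both subsets. These falls were under the 1.5-fold needed for a call. The counts cover the whole gene and were not split by exon, and the source of the Gtf2i reads left in cKO was not tested. The study states that it verified the deletion in B cells in DNA, mRNA and protein. Some features went with genotype or with 1 library. All WT libraries expressed the female-specific Xist, at 25930 to 47002, with at most 6.34 normalized counts of the Y-linked Ddx3y, and all cKO libraries had at least 2682 of Ddx3y, so sex, the Cre and loss of Gtf2i cannot be told apart in any cKO against WT value below. None of the 10 genes lies on the X or Y chromosome. cKO FO replicate 1 held both Xist (14748) and Ddx3y (2682), while Xist was at 67.4 in cKO FO replicate 2 and at 89.7 and 21.7 in the cKO MZ libraries. The FO against MZ values in cKO and over both genotypes thus compare libraries that differ in part by sex, and its part in them was not tested. cKO MZ replicate 1 stood apart by the summed level of 6 erythroid markers, 13304 against at most 1007 elsewhere. It also did by 9 granulocyte markers, 1876 against at most 104 elsewhere. Results of the 10 genes that rest on it are given without it too. Of the calcium list genes named below only Atp2b4 is given without it, and fewer list genes were then called higher in MZ over both genotypes. The plasma cell sum was 6861 in WT MZ replicate 2 and 3874 in WT MZ replicate 1, and the macrophage sum 1277 and 320. The macrophage sum was also 1260 in cKO MZ replicate 1. The part of these markers in the results was not tested.

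Differences are given as log2 of normalized count plus 1, from limma, and a gene was called when its adjusted p was at most 0.05 and its change at least 1.5-fold. In WT, 2 of the 10 genes were called higher in FO and 2 higher in MZ cells, where 4.62% and 7.41% of all tested genes were called in these directions. In cKO, 3 were called higher in FO and 1 higher in MZ, against 5.54% and 8.18% of all genes. Over both genotypes, with genotype as a term, 3 were called higher in FO (Ryr2, Orai2, Orai1) and 2 higher in MZ (Cacna1e, Cacna1a), against 7.94% and 11.6%. Other marker lists moved with the subset. The summed level of 6 dendritic cell markers was between 190 and 265 normalized counts in FO and between 307 and 507 in MZ libraries, that of the stromal and endothelial list between 6875 and 7952 in FO and between 5213 and 6371 in MZ libraries, nearly all of it Pecam1, and that of platelet markers between 72.8 and 108 in FO and between 43.5 and 66.8 in MZ libraries. Single markers of these lists ranged widely. Clec9a of dendritic cells was at most 9.96 normalized counts, while Itgax reached 215 in WT MZ replicate 2. Flt3 was at 110 and 96.1 (WT FO), 140 and 158 (cKO FO), 150 and 114 (WT MZ) and 302 and 286 (cKO MZ), so it went with genotype too. The FO and MZ ranges of Itgax and of Flt3 overlapped. Pf4 of platelets was at most 2.99, while Itga2b reached 94.8 in WT FO replicate 1. Clec9a and Pf4 were at 0 in some libraries, and no marker was at 0 in every library. The part of these markers in the FO against MZ results was not tested. The median difference of the 10 genes was 0.11 over both genotypes, and that of all genes was 0.0045.

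**Figure D1:**
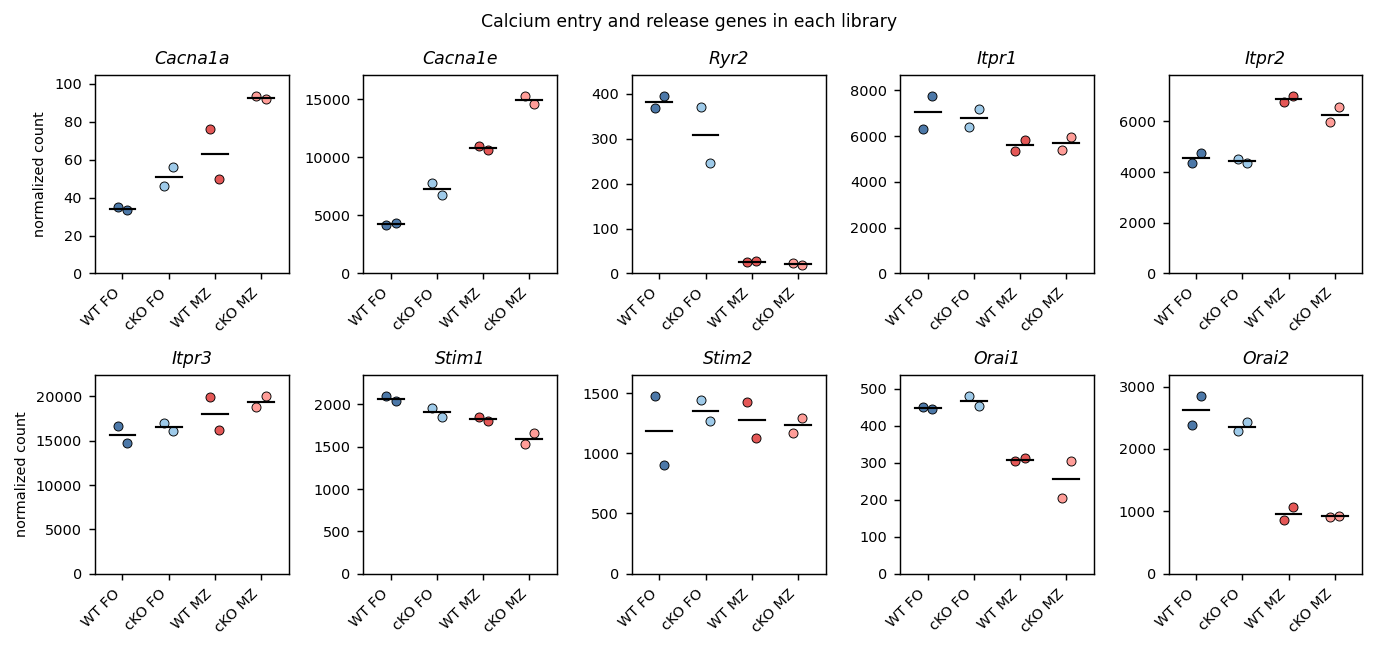
Normalized count (y axis, from 0, its own scale for each gene) of the 10 genes in each of the 8 libraries; points are libraries and the horizontal line is the mean of the 2 libraries of a group. Ryr2, Orai1, Orai2 and Itpr1 lie lower in all 4 MZ libraries, and Cacna1e and Itpr2 lie higher in all 4.

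Ryr2 differed most between the subsets. It encodes the ryanodine receptor of the sarcoplasmic and endoplasmic reticulum best known from heart muscle, where calcium itself opens it. Ryr2 had normalized counts of 368 and 396 (WT FO), 372 and 246 (cKO FO), 25.0 and 27.2 (WT MZ) and 22.9 and 18.6 (cKO MZ). Each FO library was above each MZ library, and the difference, FO minus MZ, was 3.82 in WT (SE 0.26, limma adjusted p = 1.65e-04) and 3.81 in cKO (adjusted p = 1.45e-04), a 14.1-fold and a 14.0-fold difference. Even in FO cells the level per exon length was low, at 0.552 RPKM (reads scaled to exon length and to the library's reads on genes) in WT. As few as 18 reads fell on the gene in an MZ library.

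Orai2 and Orai1 were the other members called higher in FO cells over both genotypes. Both encode pore subunits of the calcium release-activated channel. Orai2 had normalized counts of 2389 and 2846 (WT FO), 2283 and 2434 (cKO FO), 857 and 1067 (WT MZ) and 917 and 925 (cKO MZ). The subsets did not overlap, and the difference was 1.45 in WT (SE 0.13, limma adjusted p = 5.20e-04) and 1.35 in cKO (adjusted p = 5.96e-04), or 2.73-fold and 2.56-fold. Orai1 had normalized counts of 451 and 444 (WT FO), 480 and 453 (cKO FO), 304 and 312 (WT MZ) and 205 and 306 (cKO MZ). Its FO libraries were likewise all above its MZ libraries. The Orai1 difference was 0.54 in WT (95% interval 0.10 to 0.97, limma adjusted p = 0.0947), which was not called, 0.89 in cKO (adjusted p = 0.0145) and 0.71 over both genotypes (adjusted p = 0.00322). The lowest Orai1 value was that of cKO MZ replicate 1, the library with erythroid and granulocyte markers. Without it the difference was 0.61 in cKO (adjusted p = 0.0684) and 0.56 over both genotypes (adjusted p = 0.00225), which is under 1.5-fold; the part of those markers in the result was not tested. The call in cKO was also lost without cKO FO replicate 1 (adjusted p = 0.0894) and without cKO FO replicate 2 (adjusted p = 0.0614).

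Cacna1e had the reverse pattern. It encodes the pore-forming subunit of the R-type voltage-gated calcium channel, known mainly from neurons and endocrine cells. Cacna1e had normalized counts of 4148 and 4379 (WT FO), 7784 and 6762 (cKO FO), 11017 and 10649 (WT MZ) and 15314 and 14648 (cKO MZ). The 4 groups did not overlap at all and stood in that order. FO minus MZ was -1.35 in WT (SE 0.09, limma adjusted p = 1.80e-04) and -1.05 in cKO (adjusted p = 4.26e-04), so the transcript was 2.54-fold and 2.06-fold higher in MZ cells. Cacna1a, which encodes the P/Q-type subunit, was far lower, at normalized counts of 34.9 and 33.3 (WT FO), 45.9 and 56.4 (cKO FO), 76.1 and 49.8 (WT MZ) and 93.7 and 91.8 (cKO MZ). Within each genotype its MZ libraries were above its FO libraries, but 1 cKO FO library (56.4) exceeded 1 WT MZ library (49.8). The Cacna1a difference was -0.83 in WT (95% interval -1.49 to -0.18, limma adjusted p = 0.0879) and -0.85 in cKO (adjusted p = 0.0735), neither called, and -0.84 over both genotypes (adjusted p = 0.00656), which was called.

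Reference promoter sequence is shown for the 3 genes that differed by over 2-fold between the subsets in both genotypes. The windows are the 250 bases before the RefSeq gene start on GRCm38.p6 (mm10), on the gene's own strand, at chr13:12106946-12107195 (-) for Ryr2, chr5:136170657-136170906 (-) for Orai2 and chr1:154725921-154726170 (-) for Cacna1e. Capitals mark CACGTG, the E-box read by USF and MYC family factors; TFII-I is known to bind E-box and initiator elements. The motif to mark was chosen after the motifs had been counted.
Ryr2: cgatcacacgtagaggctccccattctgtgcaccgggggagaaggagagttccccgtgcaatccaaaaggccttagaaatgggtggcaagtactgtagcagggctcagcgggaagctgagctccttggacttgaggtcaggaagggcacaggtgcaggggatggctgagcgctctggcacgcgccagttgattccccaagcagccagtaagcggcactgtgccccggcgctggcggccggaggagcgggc
Orai2: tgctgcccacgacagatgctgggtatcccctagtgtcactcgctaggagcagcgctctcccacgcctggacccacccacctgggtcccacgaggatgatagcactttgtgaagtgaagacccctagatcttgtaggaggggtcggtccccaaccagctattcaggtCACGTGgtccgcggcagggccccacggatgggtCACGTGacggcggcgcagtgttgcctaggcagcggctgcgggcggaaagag
Cacna1e: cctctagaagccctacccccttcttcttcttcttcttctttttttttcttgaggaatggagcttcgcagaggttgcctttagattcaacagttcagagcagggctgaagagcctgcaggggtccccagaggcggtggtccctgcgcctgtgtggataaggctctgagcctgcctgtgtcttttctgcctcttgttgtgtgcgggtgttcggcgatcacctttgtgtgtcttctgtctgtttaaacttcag
The Orai2 window held 2 E-boxes of this form and the others none; 6.02% of 32851 mouse promoter windows of this length held at least 1, and 0.429% held 2 or more. Of the 8 members with a window in the table (Cacna1a and Itpr1 had none), Itpr3 held 1 and the other six held none. The NFAT core GGAAA, searched on both strands, was found in the Orai2 window only, among members, and in 55.6% of all windows. The GC box GGGCGG was found 8 times for Stim1, 4 times for Itpr2, 3 times each for Stim2 and Orai1, and once each for Itpr3 and Orai2; 32.7% of all windows held it. The AP-1 motif TGACTCA, held by 4.46% of windows, was found in no member's window. The same was true of TATAAA, the TATA box, held by 12.4%. CpG dinucleotides numbered 6 for Cacna1e, 14 for Ryr2 and 17 for Orai2, against a median of 6 over all windows and 22 to 31 for the other five members. These are matches of letters and were not tested as binding sites. The Cacna1e start of RefSeq lies inside the longer GENCODE gene, chr1:154390731-154884501, so its window is the promoter of only that start. GENCODE places the start of Orai2 at chr5:136170713, inside the printed window, so the second CACGTG lies within the GENCODE gene. The Stim1 and Stim2 windows also overlap the GENCODE genes. Orai2 was not called between cKO and WT (-0.15 in FO and -0.05 in MZ).

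**Figure D2:**
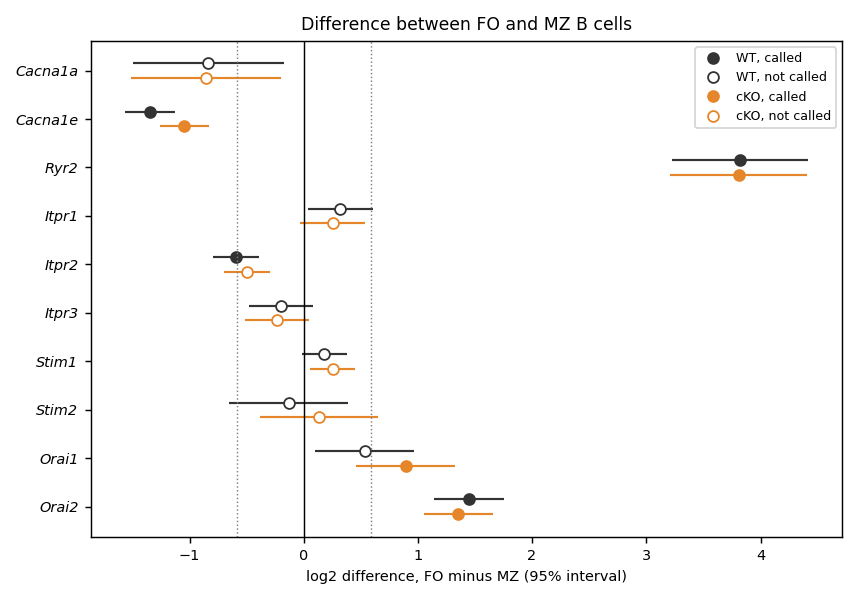
Log2 difference, FO minus MZ (x axis), of each gene in WT (dark) and cKO (orange) with its 95% interval; filled points were called and the dotted lines mark 1.5-fold. Ryr2 (3.82 and 3.81) and Orai2 (1.45 and 1.35) lie to the right and Cacna1e (-1.35 and -1.05) to the left of 0 in both genotypes.

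The IP3 receptors were expressed at high levels and moved little. Itpr3 had normalized counts of 16600 and 14720 (WT FO), 17034 and 16052 (cKO FO), 19885 and 16222 (WT MZ) and 18804 and 20021 (cKO MZ). Its FO and MZ ranges overlapped, and FO minus MZ was -0.22 over both genotypes (95% interval -0.39 to -0.04, limma adjusted p = 0.0578). Itpr2 had normalized counts of 4378 and 4761 (WT FO), 4520 and 4377 (cKO FO), 6757 and 7011 (WT MZ) and 5969 and 6561 (cKO MZ). All its MZ libraries were above its FO libraries. The Itpr2 difference was -0.59 in WT (limma adjusted p = 0.00383), 1.51-fold and so just called, and -0.49 in cKO (adjusted p = 0.00733) and -0.54 over both genotypes (adjusted p = 1.36e-04), which passed the p threshold at 1.41-fold and 1.46-fold. The WT call fell under 1.5-fold without WT FO replicate 1 (-0.53) or WT MZ replicate 2 (-0.57). Itpr1 went the other way, with normalized counts of 6311 and 7760 (WT FO), 6390 and 7178 (cKO FO), 5364 and 5843 (WT MZ) and 5403 and 5965 (cKO MZ). Its FO libraries were all above its MZ libraries, by 0.29 over both genotypes (95% interval 0.11 to 0.47, limma adjusted p = 0.0205), a 1.22-fold difference that was not called.

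The store sensors differed little. Stim1 had normalized counts of 2098 and 2039 (WT FO), 1958 and 1852 (cKO FO), 1852 and 1800 (WT MZ) and 1530 and 1663 (cKO MZ). FO was above MZ within each genotype, by 0.22 over both (95% interval 0.09 to 0.34, limma adjusted p = 0.0136), a 1.16-fold difference that was not called. Stim2 had normalized counts of 1474 and 903 (WT FO), 1441 and 1267 (cKO FO), 1422 and 1126 (WT MZ) and 1172 and 1293 (cKO MZ). The 2 WT FO libraries were its highest and its lowest, and the interval of its subset difference over both genotypes ran from -0.35 to 0.35.

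Because of these unequal changes the make-up of the Orai family differed between the subsets. On reads per exon length, Orai2 was 37.0% to 40.1% of the summed Orai1, Orai2 and Orai3 level in FO libraries and 18.7% to 19.4% in MZ libraries. Orai3, the third paralog and not among the 10 genes, was 39.8% to 47.7% in FO and 63.5% to 69.2% in MZ libraries, although its own counts, between 835 and 1294 in FO and between 1021 and 1310 in MZ libraries, overlapped (difference -0.20, 95% interval -0.51 to 0.12). The Orai1 share was 15.3% to 20.8% in FO and 11.5% to 17.7% in MZ libraries. Among IP3 receptors Itpr3 made up 68.7% to 74.9% in all libraries, while Itpr1 was 13.7% to 17.8% in FO and 9.91% to 12.3% in MZ, and Itpr2 was 11.9% to 13.5% in FO and 14.5% to 18.3% in MZ libraries. On reads per length of the longest transcript Itpr3 was 57.8% to 66.4% in all libraries, Itpr1 was 22.1% to 27.8% in FO and 16.3% to 19.8% in MZ, and Itpr2 was 13.0% to 14.4% in FO and 16.2% to 20.0% in MZ libraries. The Stim1 share, 40.2% to 52.8% in FO and 38.9% to 44.2% in MZ libraries, overlapped. Lengths matter to these shares too: with the longest annotated transcript in place of all exons, Stim1 was 59.3% to 71.9% of the Stim level and thus the larger part, and Orai2 was 45.7% to 48.7% in FO and 25.1% to 26.2% in MZ libraries.

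**Figure D3:**
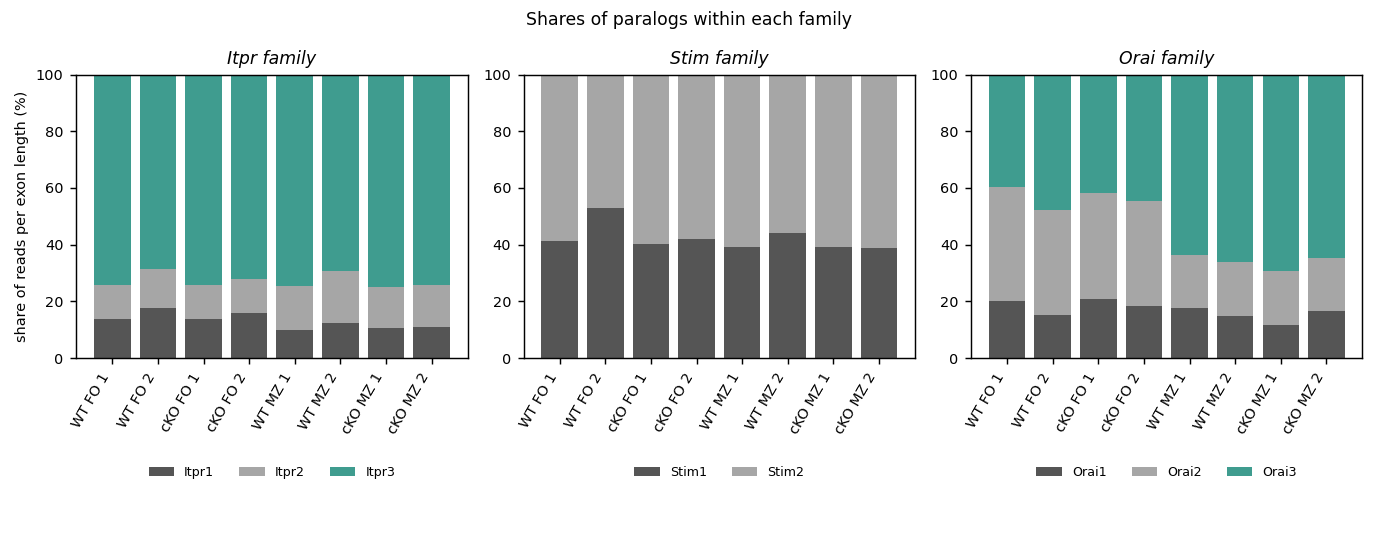
Share of each paralog (y axis, percent of reads per exon length within the family) in each library for the Itpr, Stim and Orai families; each bar is 1 library and sums to 100%. The Orai2 part lies at 37.0% or more in FO and at 19.4% or less in MZ libraries.

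Set side by side per exon length, the mean over the 8 libraries was 82.5 RPKM for Itpr3, 16.03 for Itpr2, 15.96 for Cacna1e, 14.6 for Itpr1, 11.9 for Orai2, 10.5 for Stim2, 7.58 for Stim1, 6.82 for Orai1, 0.267 for Ryr2 and 0.227 for Cacna1a. Itpr3 was above every other member in each library. From Itpr2 to Orai1, and for Ryr2 and Cacna1a, the ranges over libraries of neighbours in this order overlapped. Farther apart in it, Itpr1 and Itpr2, at 12.4 and 12.1 RPKM in their lowest libraries, were above the highest values of Stim2 (11.8 RPKM), Stim1 (8.28 RPKM) and Orai1 (8.68 RPKM). The order also depends on the length used: on the longest annotated transcript the means were 82.7 RPKM for Itpr3, 27.1 for Itpr1, 27.0 for Cacna1e, 20.3 for Itpr2, 18.1 for Orai2, 18.03 for Stim1, 10.9 for Stim2, 8.35 for Orai1, 0.457 for Ryr2 and 0.327 for Cacna1a, so Itpr1 stood above Itpr2 and Stim1 above Stim2. In WT FO cells Orai2 (17.9 RPKM) was above Cacna1e (7.02 RPKM), and in WT MZ cells it was below it (6.84 and 18.5 RPKM). The exon lengths of Cacna1e and Cacna1a are from earlier versions of the gene models than those in the table.

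Between cKO and WT, Cacna1e was the member that was called, and it was higher in cKO. It was above WT in both cKO libraries of each subset (values above), by 0.77 in FO (95% interval 0.55 to 0.98) and 0.47 in MZ (0.25 to 0.68), or 1.70-fold and 1.38-fold. Over both subsets, with subset as a term, the difference was 0.62 (SE 0.08, limma adjusted p = 0.0261), 1.53-fold, and Cacna1e was the single member called, against 0.149% of all genes. Within a subset no member was called by limma: Cacna1e had an adjusted p of 0.0617 in FO and 0.515 in MZ, and 0.0677% and 0.0339% of all genes were called. At an unadjusted p under 0.05 limma had 1 member in FO, among 382 of 14761 genes, and 1 in MZ, among 596, Cacna1e both times, and over both subsets it had 3 (Cacna1e, Cacna1a and Stim1), among 1230. DESeq2 on the recovered whole reads called Cacna1e in FO (adjusted p = 4.82e-08) and over both subsets (adjusted p = 1.63e-09). It did not in MZ, where Cacna1e was under 1.5-fold (adjusted p = 0.0140). In FO, over both subsets and in MZ DESeq2 called 0.184%, 0.528% and 0.332% of the genes to which it gave an adjusted p (13616, 14761 and 14474). edgeR called no member in FO or MZ and Cacna1e over both subsets (adjusted p = 0.0329).

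The call over both subsets rested on nearly every library. It was lost when any library but WT MZ replicate 1 was left out: the difference was under 1.5-fold without cKO FO replicate 1 (0.55) and WT FO replicate 1 (0.57), and without WT FO replicate 1 or 2, cKO FO replicate 2, WT MZ replicate 2, or cKO MZ replicate 1 or 2 the adjusted p lay between 0.0648 and 0.124. The difference itself stayed between 0.55 and 0.66.

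The other nine members were not called in a genotype comparison. Cacna1a was likewise higher in both cKO libraries of each subset, by 0.56 in FO (95% interval -0.09 to 1.22) and 0.58 in MZ (-0.07 to 1.24), and Stim1 was lower in both, by -0.12 in FO (-0.32 to 0.08) and -0.19 in MZ (-0.39 to 0.0026); over both subsets their limma adjusted p was 0.479 and 0.522. Ryr2 was -0.34 in FO and -0.32 in MZ, with intervals from -0.93 to 0.26 and from -0.92 to 0.27, which reach a fall of over 1.5-fold. The differences of Itpr1, Itpr2, Itpr3, Stim2, Orai1 and Orai2 lay between -0.30 and 0.23, and all their intervals held 0. For Itpr1, Itpr2 and Itpr3 these intervals ran from -0.34 at the lowest to 0.39 at the highest, all inside 1.5-fold.

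**Figure D4:**
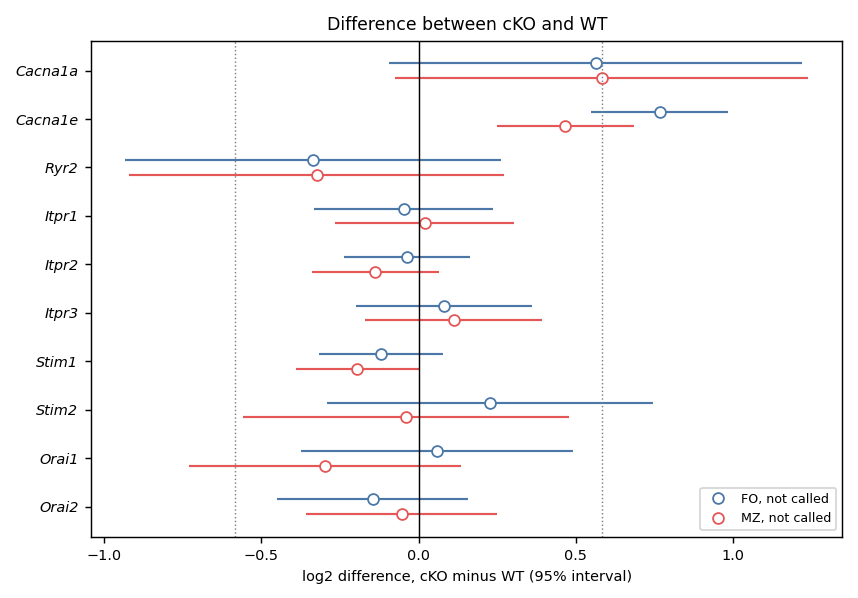
Log2 difference, cKO minus WT (x axis), of each gene in FO (blue) and MZ (red) cells with its 95% interval; open points were not called by limma within a subset, and the dotted lines mark 1.5-fold. The Cacna1e intervals (0.55 to 0.98 and 0.25 to 0.68) lie above 0, while those of the other nine genes cross it.

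No member was called for a response to genotype that differed between the subsets. The interaction, that is the cKO minus WT difference in FO less that in MZ, was 0.30 for Cacna1e (95% interval -0.0072 to 0.61) and 0.36 for Orai1 (-0.26 to 0.97). limma called none of the 10 and 0% of all genes, with 0 of the 10 and 94 of 14761 genes at an unadjusted p under 0.05, and DESeq2 and edgeR called 0 members as well. With 2 libraries a group this does not show that the responses were alike.

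Other genes of calcium signalling were described from 6 lists, of which 109 of 148 genes in the table were tested. Over both genotypes 13 were called higher in FO and 16 higher in MZ cells and 80 were not called. These are 11.9% and 14.7% of the 109, where 7.94% and 11.6% of all genes were called. None was called by limma in a comparison of cKO with WT within FO, within MZ or over both, or in the interaction. There 0.0677%, 0.0339%, 0.149% and 0% of all genes were called, so a count of 0 among 109 says little about the lists. In FO against MZ, the counts higher in FO, higher in MZ and not called were 10, 10 and 89 in WT. These are 9.17% in each direction, against 4.62% and 7.41% of all genes. In cKO they were 11, 11 and 87, or 10.1% in each direction against 5.54% and 8.18%. In cKO 13 of the 109 were called without cKO MZ replicate 1, in place of 22.

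Among 19 other plasma membrane channel genes 3 were higher in FO and 4 in MZ cells. Cacna1i, a T-type voltage-gated subunit, ranged from 8421 to 11197 normalized counts in FO and from 628 to 1547 in MZ libraries (difference 3.28, limma adjusted p = 3.25e-06), and the L-type subunit Cacna1d was 1.18 higher in FO. Thus Cacna1i and Cacna1d were higher in FO cells, while Cacna1e and Cacna1a were higher in MZ cells. Trpm2, an ADP-ribose-gated cation channel, ranged from 49.3 to 69.4 in FO and from 1102 to 1855 in MZ libraries (-4.69, limma adjusted p = 3.22e-07). The auxiliary subunit Cacnb4 was at 28.9 and 20.0 (WT FO), 8.96 and 11.1 (cKO FO), 196 and 229 (WT MZ) and 90.7 and 105 (cKO MZ), a difference of -3.13 (limma adjusted p = 6.45e-06). Its cKO libraries were below its WT libraries in each subset, though limma called it in no genotype comparison. Of the other called genes of this list, Hvcn1 (1.54) encodes a proton channel, Kcnn4 (-1.23) a calcium-activated potassium channel and P2rx7 (-1.03) an ATP-gated channel. The list median was 0.03.

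Among 12 partners of store-operated entry, Saraf, a brake on STIM1-driven entry, was higher in FO (0.86, limma adjusted p = 0.0226), and the membrane-contact protein Jph1 (-3.86, adjusted p = 3.12e-05), the ORAI regulator Cracr2a (-0.91, adjusted p = 2.83e-04) and Asph (-0.61, adjusted p = 0.0148), whose locus also encodes junctate, were higher in MZ cells. The other 8 were not called, and the median was -0.16. Saraf and Asph were called over both genotypes only, not within WT or within cKO, and their FO and MZ ranges overlapped. Saraf had normalized counts of 1286 and 675 in WT FO and 788 and 456 in WT MZ. Asph was at 61.4 in cKO FO replicate 2 and at 56.1 in WT MZ replicate 2. Jph1 was at 4.48 normalized counts or fewer in each FO library.

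Among 23 other release channels and regulators, the endolysosomal channel gene Tpcn1 was higher in FO (0.61). The lysosomal channel Mcoln3 (-2.04), the IP3 receptor-binding protein Ahcyl2 (-1.24) and Cd38, which makes cyclic ADP-ribose, an activator of ryanodine receptors (-0.76), were higher in MZ cells, and 19 were not called. Of 17 pumps and exchangers, the plasma membrane pump Atp2b1 was higher in FO (0.89, limma adjusted p = 1.40e-04) and 16 were not called. Atp2b4, a pump abundant in red cells, was called higher in MZ in cKO (-3.01, limma adjusted p = 0.0265) and not in WT (-0.44, adjusted p = 0.743). It had 88.7 normalized counts in cKO MZ replicate 1, the library with erythroid markers, and 24.7 in cKO MZ replicate 2. Without cKO MZ replicate 1 the Atp2b4 difference in cKO was -2.11 (adjusted p = 0.169), and the part of the erythroid markers in it was not tested. The call was also lost without cKO FO replicate 1 (adjusted p = 0.0610) or cKO FO replicate 2 (adjusted p = 0.131).

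Among 16 genes of IP3 production and breakdown, Plcl2 (0.94), a catalytically inactive phospholipase C-like protein, the IP3 kinase Itpkb (0.78) and the phosphatase Inpp1 (0.70) were higher in FO cells. Plcd3 (-4.81), Plcg1 (-0.71), the adaptor Blnk (-0.63) and the IP3 kinase Itpka (-1.60) were higher in MZ cells, and 9 were not called. Plcd3 varied widely among MZ libraries, from 125 to 897 normalized counts, all above the FO libraries, at 23.8 or fewer. Among 22 genes of calcineurin, NFAT and calmodulin kinases, the calcineurin catalytic subunit Ppp3ca (0.97, limma adjusted p = 4.34e-06), Camkk2 (0.88), Homer3 (0.92) and Camkk1 (0.82) were higher in FO, Camk2a (-1.57) and the calcineurin anchor Akap5 (-0.75) were higher in MZ cells, and 16 were not called. The medians of these lists were 0.27 and 0.05.

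For each member called between the subsets over both genotypes, the genes whose log2 values followed it most closely over the 8 libraries are given as a description; the libraries fall into the 2 subsets, so a high correlation mostly follows the subset. For Ryr2 these were L1cam (Pearson r = 0.996), Rapgef6 and Tax1bp1. For Orai2 they were Mex3b, Enpp1 and Gimap3 (r = 0.998 each), and for Orai1 they were Zfp319 (0.993), Sipa1l1 and Uhrf1bp1l. For Cacna1e they were Sema6b (0.990), Tada2a and Ak7, and for Cacna1a they were Asph (0.987), Tcirg1 and Ctsd.

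In these sorted populations fewer cells with a transcript and less transcript per cell cannot be told apart. The antisense and other genes that overlap exons of Cacna1a, Itpr1, Itpr3 and Orai1 had at most 11.0 normalized counts in any library where they have a value. The strand of counting is not given, so reads shared with them were not measured.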

How the data were processed

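Total RNA of sorted FO and MZ B cells was depleted of ribosomal RNA and read as 50-base single ends. Per the labels and the methods of the study, reads were aligned to mm10 with HISAT2 and counted with featureCounts and htseq-count, and the authors normalized them with DESeq2. The deposited table holds this signal, reads divided by a size factor, for 27928 genes in 8 libraries. Multiplied by the size factor, all values came out as whole reads (tolerance 0.01), with the size factors found by median of ratios. Counting strand and software versions are not given in the sources used here. The 8 ATAC-seq samples were not analysed, and the values of 1 gene are not reported here.

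The 14761 genes whose normalized count averaged 10 or more were tested on log2(normalized count + 1) with limma 3.58.1 (R 4.3.3; eBayes with trend, Benjamini-Hochberg adjustment over all genes). The 4 groups shared 1 fit, and differences over both genotypes or subsets had the other factor as a term. On this scale the change of low genes is understated. Calls needed an adjusted p of at most 0.05 and 1.5-fold. edgeR 4.0.16 (quasi-likelihood) and DESeq2 1.42.0 were run on the recovered reads. The procedure was tested on simulated data. Exon lengths are from GENCODE M21 (mm10), and promoters from the RefSeq table on GRCm38.p6.

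Named were the 10 genes in every library, Gtf2i, the called genes of the calcium lists (at most 6 a list and comparison, by p) and the 3 genes most like each called member; Orai3, Xist, Ddx3y and, past the limit of 6, Itpka and Kcnn4 were added after their values were seen. The members and lists were chosen with earlier results of these data known. Lists of markers of B, T, granulocyte, macrophage, dendritic, erythroid, platelet, stromal and plasma cells, and of marginal zone against follicular cells, were summed per library. The T cell sum lay between 745 and 1294 normalized counts and was nearly all Lck (692 to 1226). Cd3d, Cd3e, Cd3g, Cd4 and Cd8a were each at most 19.0. Macrophages lay between 320 and 1277, dendritic cells between 190 and 507, platelets between 43.5 and 108, stroma between 5213 and 7952 and plasma cells between 2855 and 6861. B cells lay between 190383 and 266033. The list of marginal zone against follicular markers lay between 55692 and 150127. It holds the follicular marker Fcer2a too, so its sum is not a level of marginal zone markers alone.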

Additional observations from a re-analysis of the deposited data

How the results depend on the processing

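The number of the 10 genes called between FO and MZ cells was 4 in WT, 4 in cKO and 5 over both genotypes, and it went to 3 to 4, 3 to 4 and 4 to 5 when single libraries were left out; over both genotypes it was 8 with no fold cutoff and 3 at 2-fold. Between cKO and WT in FO it was 0, and 1 by DESeq2. Over both subsets it was 1, 0 at 2-fold, and 0 to 1 with single libraries left out. Other normalizations, pseudocounts and filters left these counts within 1.5 times. Quantile normalization took Itpr2 past 1.5-fold in cKO (-0.64) and over both genotypes (-0.67). It turned Stim2 in FO against MZ over both genotypes to -0.024 and Itpr1 in cKO against WT over both subsets to 0.037; neither was called under any setting run.

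Leaving out single libraries reversed only differences that were not called. In FO against MZ, Stim2 ranged from -0.49 to 0.22 in WT and from -0.11 to 0.17 over both genotypes. In cKO against WT in FO, Itpr1 ranged from -0.20 to 0.10, Itpr2 from -0.098 to 0.023, Itpr3 from -0.0056 to 0.17 and Stim2 from -0.13 to 0.58. In MZ, Itpr1 ranged from -0.051 to 0.092, Itpr3 from -0.035 to 0.26, Stim2 from -0.21 to 0.13 and Orai2 from -0.21 to 0.10. Over both subsets, Itpr1 ranged from -0.066 to 0.053, Stim2 from -0.074 to 0.21 and Orai1 from -0.20 to 0.032.

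Over all genes, the counts called were 1776 in FO against MZ in WT (1014 on only the libraries compared), 2026 in cKO (1325 at 2-fold, and 1210, 1073 and 1348 without cKO FO replicate 1, cKO MZ replicate 1 and cKO MZ replicate 2) and 2877 over both genotypes (5589 with no fold cutoff, 1704 at 2-fold). Between cKO and WT they were 10 in FO (4 on only the libraries compared, 25 by DESeq2, 4 to 6 without single libraries of WT FO, cKO FO or cKO MZ), 5 in MZ (48 by DESeq2) and 22 over both subsets (78 by DESeq2). Of the 109 genes of the calcium lists, 20, 22 and 29 were called in FO against MZ in WT, in cKO and over both genotypes, and 16 to 18, 13 to 25 and 26 to 28 with single libraries left out, a check added after seeing the data; Atp2b4 then ranged from -1.09 to 0.21 in WT, where it was not called. The cause was not tested.

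The replicate numbers of the labels are not tied to animals. Deviations of same-numbered libraries correlated at 0.59 between WT FO and WT MZ, -0.0015 between cKO FO and cKO MZ, 0.29 between WT FO and cKO FO and -0.30 between WT MZ and cKO MZ. The numbers were therefore not shown to pair the libraries. Xist was at 14748 in cKO FO replicate 1 and at 89.7 in cKO MZ replicate 1, so these same-numbered libraries differed in the sexes they held. With a replicate block the members called were 4 in WT, 4 in cKO and 5 over both genotypes, 0 in either subset and 1 over both subsets for genotype, and all genes called were 1973, 2262, 3002, 9, 5 and 25. With the numbers of the cKO MZ libraries exchanged in the replicate block, chosen after seeing the data because of the correlation of -0.30, 1 member was called between cKO and WT in FO, 0 in MZ and 1 over both subsets, and 16, 12 and 50 of all genes. Depth limited Ryr2 in MZ cells and Cacna1a most, with as few as 18 and 35 reads in a library.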
